A study of Mus musculus with 13 samples.

Results

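The cells described here, the members, were 200 colonocyte-like cells of antibiotic-treated mice with the highest combined level of Reg3b, Gsta1, Mt1, Mt2 and Fam162a. They were taken from 3415 antibiotic cells, of 4183 cells in the whole data set. A cell could enter if it had at least 500 genes with a value above 0 and if its summed CP10K (UMI, that is molecule counts, per 10000 UMI of the cell) of the goblet genes Muc2, Fcgbp and Zg16 was under 30. This left 2780 antibiotic cells. The cells were then selected on the deposited values of the 5 genes: the 200 with the highest mean were taken, and the other 3215 antibiotic cells served as the comparison. The mean value of the chosen cells had a median of 1.58, with a range of 1.32 to 2.96 on the natural log scale. The other cells that passed had a median of 0.421. The choice was a rank and not a gap in the data, since the last cell taken had a mean of 1.321 and the first cell not taken had 1.320.

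The study profiled single cells of mouse colon epithelium from antibiotic-treated wild type C57BL/6J mice and from Germ-free C57BL/6J mice with the 10x Chromium 3′ kit. Epithelium was released with EDTA, digested with dispase and sorted as EPCAM+ CD45- cells, with CD44+ (proliferative) and CD44- (differentiated) cells brought together in equal numbers, so shares of cell types were set by the sort. The cells of all mice of a condition were pooled, the antibiotic cells in one batch and the germ-free cells in another, so effects of condition and of batch cannot be told apart. The sources used here do not give the antibiotics, their doses or the age and sex of the mice, and neither condition has an untreated, conventionally colonised control.

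Reg3b encodes a secreted C-type lectin that binds bacteria, and in the gut its transcription is known to follow interleukin-22 signalling through STAT3. Mt1 and Mt2 encode metallothioneins, small cysteine-rich proteins that bind zinc and copper and are switched on by the zinc sensor MTF1 and by glucocorticoids. Gsta1 encodes an alpha class glutathione S-transferase, which joins glutathione to reactive compounds, and Fam162a encodes a mitochondrial protein first described as a hypoxia-responsive gene. Colonocytes are the absorptive cells of the colon surface. They take up salt, water and short-chain fatty acids and burn butyrate in their mitochondria.

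The values of the 5 genes chose the cells, and every other gene was read in the same cells, so the comparisons among antibiotic cells are descriptions and carry no test. With 1 pool of mice per condition there is no biological replicate. The names of the antibiotic cells carry 3 numbers, treated here as 3 cell sets whose relation to the libraries is not stated. A gene was called where its pooled level differed at least 2-fold and its 3 values in the chosen cells all lay above, or all below, the 3 values in the comparison cells. The sets are not independent samples: 810 cell barcodes occurred in more than 1 antibiotic set, and the less deep copy of such a barcode held a median of 9.36% of the UMI of the deepest copy. The profiles of 2 copies of a barcode correlated with a median r of 0.466, against 0.209 for the less deep copy and a random cell of the same set as its deepest copy. What links the copies was not tested. Of the 200 chosen cells, 143 had a barcode seen in another set, and the 200 cells held 147 distinct barcodes. With only the deepest copy of each barcode, 142 chosen cells remained, and 58 (29%) were dropped as less deep copies, against 24.2% of the other antibiotic cells. The counts of calls against all other antibiotic cells and against other colonocytes were also made on those distinct cells, and are given below where they differ. The calls within the chosen cells and against the 3 smaller groups were not repeated on them. No barcode was shared among the germ-free sets.

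The chosen cells were deeper than the rest, with a median of 16945.5 UMI and a range of 857 to 96367, against a median of 6749 and a range of 401 to 86248 in the other antibiotic cells. They made up 43 of 832 cells (5.17%) in set 1, 82 of 1149 (7.14%) in set 2 and 75 of 1434 (5.23%) in set 3. Their median depth differed between the sets, at 21493, 18933.5 and 4905 UMI. Mitochondrially encoded genes took 9.07% of their UMI, against 12.8% in the other antibiotic cells. The nuclear RNA Malat1 stood at 17646.6 CPM (100 times the CP10K of the pooled cells) in the chosen cells and at 28309.6 CPM in the others. The part of depth and of nuclear RNA in the results below was not tested. A doublet caller marked 0 of the 200 cells, but it marked only 0.406% of all cells and so carries little information.

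The colonocyte label held for some of its markers and not for others. Of 12 measured colonocyte markers, 2 were called higher in the chosen cells than in all other antibiotic cells and 1 was called lower. Among all 6465 genes with enough counts to be ranked, 5.35% were called higher and 15.7% lower. Car1, the abundant cytosolic carbonic anhydrase of colonocytes, averaged 22670 CPM against 5522 CPM, a ratio of 4.11. Guca2a, which encodes the secreted peptide guanylin, averaged 4301 CPM against 2116 CPM, a call that was lost when mitochondrial and ribosomal RNA genes were left out of the totals. Here and below, that label stands for the mitochondrially encoded genes with Gm42418, AY036118 and Lars2, though Lars2 is itself a protein-coding gene. Krt20, a keratin of differentiated epithelium, had 720.0 CPM against 449 CPM, which did not reach 2-fold. The surface transporters went the other way. Slc26a3, the chloride and bicarbonate exchanger, had 211 CPM against 340 CPM, and Car4, a membrane-bound carbonic anhydrase, had 181 CPM against 272 CPM. Aqp8, a water channel of surface colonocytes, had 3 UMI in the chosen cells, 0.762 CPM against 26.1 CPM.

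Against all other antibiotic cells, markers of most other cell types were low, while the summed level of the enteroendocrine markers differed little. Among all ranked genes, 5.35% were called higher and 15.7% lower. Of 12 measured goblet markers, 8 were called lower in the chosen cells and 0 higher, though Muc2, Fcgbp and Zg16 were held down by the filter. Their median log2 ratio was -2.94, beside -0.25 for all measured genes. Of 13 proliferation markers, 3 were called lower and 0 higher: Mki67 had 5.59 CPM against 65.8 CPM, and Top2a and Cenpf followed. The 13 immune markers summed to 0.762 CPM in the chosen cells and 1.66 CPM in the others, and 0 of them had enough counts to be measured. The tuft markers summed to 5.08 CPM against 32.1 CPM, and the enteroendocrine markers to 20.3 CPM against 22.1 CPM. Of the 11 enteroendocrine markers, only Sct had enough counts to be measured, with a log2 ratio of 0.59. In the chosen cells 7 of the 11 had 0 UMI, so the sums say little about that cell type. The stromal and endothelial markers summed to 1.78 CPM against 4.51 CPM.

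**Figure D1:**
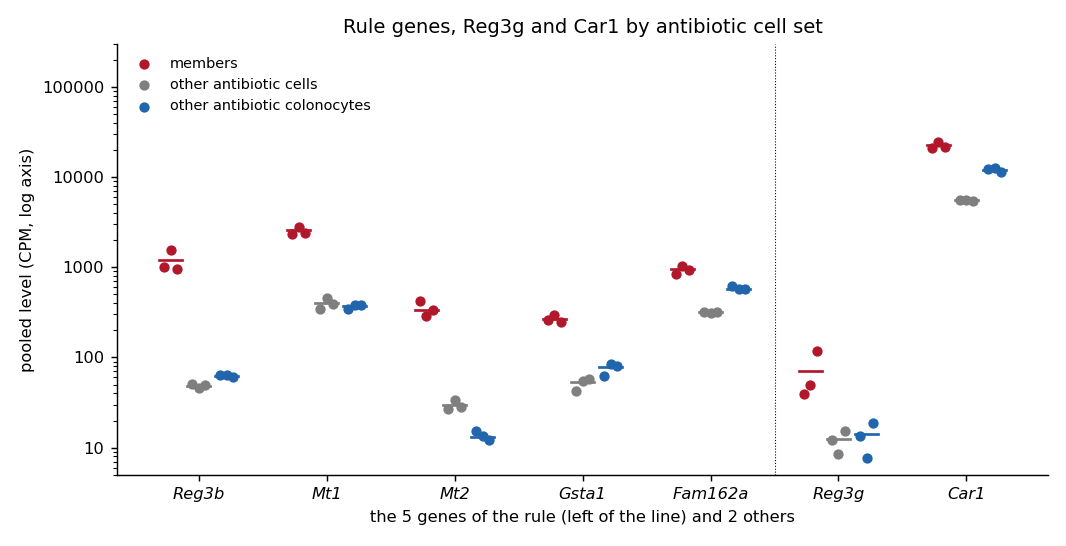
Pooled level in CPM (log axis) of the 5 genes used to choose the cells and of Reg3g and Car1, with 1 point for each of the 3 cell sets and a line at the pooled level, in the chosen cells (members), the other antibiotic cells and the other antibiotic colonocytes. Reg3b lies at 954 to 1539 CPM in the chosen cells and at 45.8 to 50.8 CPM in the other antibiotic cells, and no gene shown overlaps between these groups, which for the 5 genes the choice of cells fixes.

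Reg3b, at chr6:78370657-78373466 on the plus strand of GRCm38, had 1013, 1539 and 954 CPM in the chosen cells of sets 1, 2 and 3. In the other antibiotic cells it had 50.8, 45.8 and 49.5 CPM. The groups did not overlap and the pooled level was 24.9-fold higher (95% counting interval 23.5 to 26.4, which covers counting error only, here and below). Mt1, at chr8:94179082-94180327 on the plus strand, had 2328, 2805 and 2432 CPM in the chosen cells, against 346, 460.3 and 392 CPM in the others. It was 6.34-fold higher (6.18 to 6.51). Mt2, a few kilobases before Mt1 at chr8:94172664-94173568, had 426, 287 and 340 CPM in the chosen cells. The other cells had 26.5, 34.1 and 28.1 CPM, so Mt2 was 11.4-fold higher (10.5 to 12.4), a wider gap than that of Mt1.

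Gsta1, at chr9:78230656-78242684 on the plus strand, had 261, 294 and 247 CPM in the chosen cells and 42.6, 54.9 and 57.9 CPM in the others, a ratio of 5.02 (4.65 to 5.42). Fam162a, at chr16:36043761-36071594 on the minus strand, had 842, 1039 and 932 CPM in the chosen cells and 318, 313 and 322 CPM in the others, a ratio of 3.0 (2.89 to 3.11). Both groups were separate for both genes, as the choice of the cells fixes. Gsta1, Mt1 and Mt2, and Reg3b belong to families of close paralogs, and the sources used here do not say how reads matching several copies were counted, so the split of counts within each family is uncertain.

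The promoters of the metallothionein pair and of the Reg3 pair are shown because each pair was high together in the chosen cells. They are RefSeq sequences of GRCm38.p6, from 250 bases before to 50 bases after the RefSeq start, in the direction of transcription. For the metallothioneins, at chr8:94178839-94179138 and chr8:94172368-94172667, both on the plus strand, capitals mark matches on either strand to the core letters of the metal response element, TGCACNC or TGCGCNC. For the Reg3 genes, at chr6:78370635-78370934 on the plus strand and chr6:78468825-78469124 on the minus strand, capitals mark TTCNNNGAA, the palindromic letters bound by STAT proteins.
Mt1: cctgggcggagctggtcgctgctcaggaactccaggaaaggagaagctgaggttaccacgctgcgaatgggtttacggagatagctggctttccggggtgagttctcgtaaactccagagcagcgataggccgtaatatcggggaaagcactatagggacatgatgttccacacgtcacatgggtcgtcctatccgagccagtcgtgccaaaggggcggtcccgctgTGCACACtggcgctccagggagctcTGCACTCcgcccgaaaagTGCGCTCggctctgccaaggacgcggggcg
Mt2: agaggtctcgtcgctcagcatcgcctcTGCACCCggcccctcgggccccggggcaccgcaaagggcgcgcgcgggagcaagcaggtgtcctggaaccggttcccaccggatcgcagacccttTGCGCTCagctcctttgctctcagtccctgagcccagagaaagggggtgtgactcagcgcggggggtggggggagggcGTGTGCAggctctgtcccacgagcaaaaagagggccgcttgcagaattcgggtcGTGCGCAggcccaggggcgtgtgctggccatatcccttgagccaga
Reg3b: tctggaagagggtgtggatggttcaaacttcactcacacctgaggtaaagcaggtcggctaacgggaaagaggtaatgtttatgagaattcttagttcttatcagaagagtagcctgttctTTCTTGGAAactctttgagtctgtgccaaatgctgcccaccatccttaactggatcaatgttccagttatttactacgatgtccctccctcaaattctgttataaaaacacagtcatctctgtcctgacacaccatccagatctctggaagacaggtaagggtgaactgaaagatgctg
Reg3g: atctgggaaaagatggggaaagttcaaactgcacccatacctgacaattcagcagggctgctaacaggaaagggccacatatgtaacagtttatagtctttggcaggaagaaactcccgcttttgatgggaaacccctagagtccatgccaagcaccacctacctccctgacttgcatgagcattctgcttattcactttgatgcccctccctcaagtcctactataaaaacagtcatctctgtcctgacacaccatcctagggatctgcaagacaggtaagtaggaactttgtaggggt
The Mt1 window held 3 matches and the Mt2 window held 4. Of 32851 promoter windows of the same length, 25.7% held at least 1 such match, 1.97% at least 3 and 0.518% at least 4. The Reg3b window held 1 match to TTCNNNGAA, which 8.30% of windows held, and the Reg3g window held 0. The windows of Reg3b and Reg3g were 73.8% identical over 290 aligned bases, and those of Mt1 and Mt2 73.1% over 242. A match says only that the letters are present.

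Single cells differed in which of the 5 genes they carried. Of the 200 chosen cells, 62 had a UMI of all 5 genes, 75 of 4, 57 of 3 and 6 of 2. Mt1 was present in 98.5% of the chosen cells, against 50.8% of the other antibiotic cells, and Fam162a in 95.5% against 48.6%. Gsta1 was present in 71.5% against 23.6%, Mt2 in 65.5% against 14.0% and Reg3b in 65.5% against 24.4%. In 177 cycling antibiotic cells, taken from cells that were not chosen, 29.4% had a Reg3b UMI at a median depth of 10221 UMI. Whether such UMI come from free RNA in the droplets or from the cycling cells themselves was not tested. After thinning every cell to 3000 UMI, which left out 47 chosen cells, 1053 others and 21 cycling cells, Reg3b was present in 43.8% of the chosen cells, 12.5% of the others and 7.05% of the cycling cells. At that depth Mt2 was present in 49.0%, 7.12% and 8.97% of them, and Gsta1 in 36.6%, 10.5% and 5.77%. Mt1 was present in 91.5%, 40.1% and 41.0%, and Fam162a in 81.7%, 37.7% and 18.6%.

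**Figure D2:**
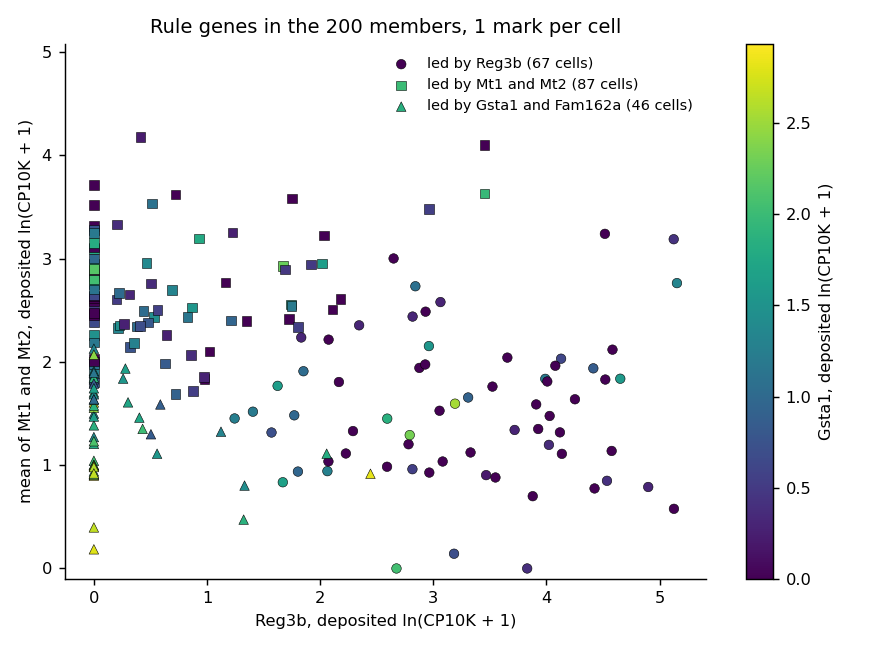
Each mark is 1 of the 200 chosen cells (members), placed by its Reg3b value and by the mean of its Mt1 and Mt2 values and coloured by its Gsta1 value, all as deposited natural log values, with the shape showing which genes lead the cell. Cells far to the right on Reg3b are mostly dark, that is low in Gsta1, and the 87 squares led by the metallothioneins fill the upper left.

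Within the chosen cells, Mt1 and Mt2 went together across cells (Pearson r = 0.58 over 200 cells), while Gsta1 and Reg3b went apart (r = -0.42). Over the 142 distinct cells, these values were 0.68 and -0.47. Across all 2780 cells that passed the filters, Mt1 and Mt2 had r = 0.47 and Gsta1 and Reg3b had r = 0.03. These correlations are descriptions: the cells share 1 pool and differ in depth, and choosing cells by a sum of values itself sets genes against each other. By a grouping made after the values were seen, each cell was placed by whichever stood highest in SD units over the 2780 cells: Reg3b, the mean of Mt1 and Mt2, or the mean of Gsta1 and Fam162a. Reg3b led 67 cells, the metallothioneins led 87, and Gsta1 with Fam162a led 46, and the genes named for each kind were picked after their values were seen. All 3 cell sets held each kind, with 10, 30 and 27 Reg3b-led cells, 24, 31 and 32 metallothionein-led cells, and 9, 21 and 16 cells led by Gsta1 with Fam162a. Of 53 barcodes with 2 copies among the chosen cells, 44 had both copies led by the same genes.

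The Reg3b-led cells had higher levels of Ifit1bl1, Ifit1, Isg15, Sis and Apob than the other chosen cells. Of 4846 ranked genes, 1.57% were called higher and 2.25% lower. Reg3b itself had 4357 CPM against 115 CPM, as the grouping fixes. Ifit1bl1, an interferon-induced gene, had 148, 197 and 376 CPM in Reg3b-led cells of sets 1, 2 and 3. It had 7.11, 23.4 and 26.3 CPM in the other chosen cells, and the groups did not overlap. Isg15, which encodes the interferon-induced ubiquitin-like modifier, averaged 249 CPM against 53.8 CPM, and Ifit1 averaged 140 CPM against 22.3 CPM, or 101 CPM against 25.9 CPM without set 3. Sis (sucrase-isomaltase) had 108 CPM against 24.0 CPM, and Apob, the core protein of secreted lipoproteins, had 285 CPM against 67.1 CPM. Spink1, which encodes a trypsin inhibitor, had 257 CPM against 39.4 CPM, and Defb37, a beta-defensin gene, had 156 CPM against 47.3 CPM. Ifitm2, another interferon-induced gene, was lower, at 5.90 CPM against 42.5 CPM. Gsdmc4, a gasdermin C gene, was also lower, at 32.5 CPM against 212 CPM, or 46.4 CPM against 169 CPM without set 2.

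The metallothionein-led cells had the lowest Car1 and Krt20 of the 3 kinds. Of the 4846 ranked genes, 1.47% were called higher and 1.09% lower. Car1 had 13028 CPM in them against 31350 CPM in the other chosen cells, and Krt20 had 366 CPM against 1039 CPM. Clca4a, a gene of proximal colonocytes, had 1.07 CPM against 84.0 CPM, or 1.79 CPM against 23.6 CPM without set 2. Sycn, which encodes syncollin, differed the other way: it had 224, 683 and 82.6 CPM in metallothionein-led cells of sets 1, 2 and 3, and 17.8, 9.03 and 36.6 CPM in the other chosen cells. Without set 2 its levels were 149 CPM against 30.3 CPM. Hoxb13, a distal colon gene, also differed this way, at 46.1 CPM against 2.41 CPM. Without set 1 it had 58.3 CPM against 1.79 CPM, and without set 3 it had 34.6 CPM against 3.13 CPM. Cftr, the chloride channel of crypt epithelium, averaged 162 CPM against 57.9 CPM. Pigr, the receptor that carries IgA across the epithelium, averaged 1471 CPM against 735 CPM. Agr2, a disulfide isomerase of secretory cells, had 101 CPM against 17.4 CPM, and Sult1a1, a phenol sulfotransferase, had 514 CPM against 214 CPM.

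The cells led by Gsta1 with Fam162a had the highest Car1 and Krt20 of the 3 kinds. Other colonocyte markers did not follow that order: Lypd8, a surface protein that binds flagella, was highest in the Reg3b-led cells, at 9642 CPM against 4312 CPM in the other chosen cells. In the cells led by Gsta1 with Fam162a it had 4600 CPM against 6087 CPM. Of the 4846 ranked genes, 0.619% were called higher and 2.99% lower. Car1 had 42704 CPM in them against 15333 CPM in the other chosen cells, and Krt20 had 1297 CPM against 509 CPM. Fabp2, the intestinal fatty acid binding protein, had 2947 CPM against 1027 CPM. Sprr1a, a small proline-rich protein, had 356 CPM against 85.4 CPM, or 278 CPM against 31.3 CPM without set 2. Nupr1, a stress-induced transcriptional coregulator, was lower, at 15.2 CPM against 138 CPM, or 1.54 CPM against 143 CPM without set 2. Mt2 had 41.7 CPM against 447 CPM, as the grouping fixes.

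Against all other antibiotic cells, 346 of 6465 ranked genes were called higher in the chosen cells (5.35%) and 1015 lower (15.7%). On the 1-cell-per-barcode data these counts were 356 and 1014, of which 335 and 989 were called in both. Beyond the genes of the rule, the leading higher genes were Reg3g, Defb37, 2610528A11Rik, 2210407C18Rik, Car1, Hsd17b13, Lpo and Ugt2b5. Reg3g, a lectin of the same family as Reg3b, had 39.1, 49.1 and 119 CPM in the chosen cells of sets 1, 2 and 3. It had 12.3, 8.41 and 15.2 CPM in the other antibiotic cells, so the groups did not overlap and the pooled ratio was 5.76 (4.93 to 6.72). Defb37 had 52.2, 83.4 and 81.5 CPM in the chosen cells, against 21.2, 18.2 and 12.96 CPM in the others. The gene 2610528A11Rik, which encodes the secreted ligand of the receptor GPR15, had 1062, 1568 and 1725 CPM against 363, 382 and 332 CPM. Lpo, which encodes lactoperoxidase, had 28.2 CPM against 6.57 CPM. Ugt2b5, a glucuronosyltransferase, had 69.1 CPM against 17.6 CPM, and Hsd17b13, a lipid droplet dehydrogenase, had 43.9 CPM against 10.3 CPM. 2210407C18Rik had 118 CPM against 27.7 CPM.

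The genes with the lowest ratios included Mptx1, Sval1, Kcnma1 and goblet cell products. Mptx1, a mucosal pentraxin, had 17.4, 6.13 and 17.3 CPM in the chosen cells of sets 1, 2 and 3, and 789, 1045 and 1341 CPM in the other antibiotic cells. Spink4 had 16.8 CPM against 349 CPM and Reg4 had 1.52 CPM against 66.1 CPM. Both are products of secretory cells, which the filter on goblet genes had removed from the chosen cells only. Kcnma1, a calcium-activated potassium channel, had 1.27 CPM against 92.9 CPM, and Sval1 had 1.52 CPM against 149 CPM. Kit, a receptor tyrosine kinase that marks deep crypt secretory cells of the colon, had 0 UMI in the chosen cells against 20.6 CPM in the others. It was at least 27.0-fold lower, with a floor of 3 counts over the 200 cells. Atp12a, the colonic proton and potassium ATPase, had 3 UMI in the chosen cells. Its level was 54.1-fold lower there, with a counting interval of 18.5 to 263. Ccl6 had 2.29 CPM against 68.8 CPM, or 1.18 CPM against 73.1 CPM without set 3. Beside Muc2, a gene of the filter, the remaining 3 of these 12 genes were 9030622O22Rik, Cenpp and Cacna1c, with 2, 2 and 1 UMI in the chosen cells, and those of 9030622O22Rik and Cenpp all came from set 3. Cenpp overlaps Ippk and Cacna1c overlaps Dcp1b, and the sources used here do not say whether counting used the strand.

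**Figure D3:**
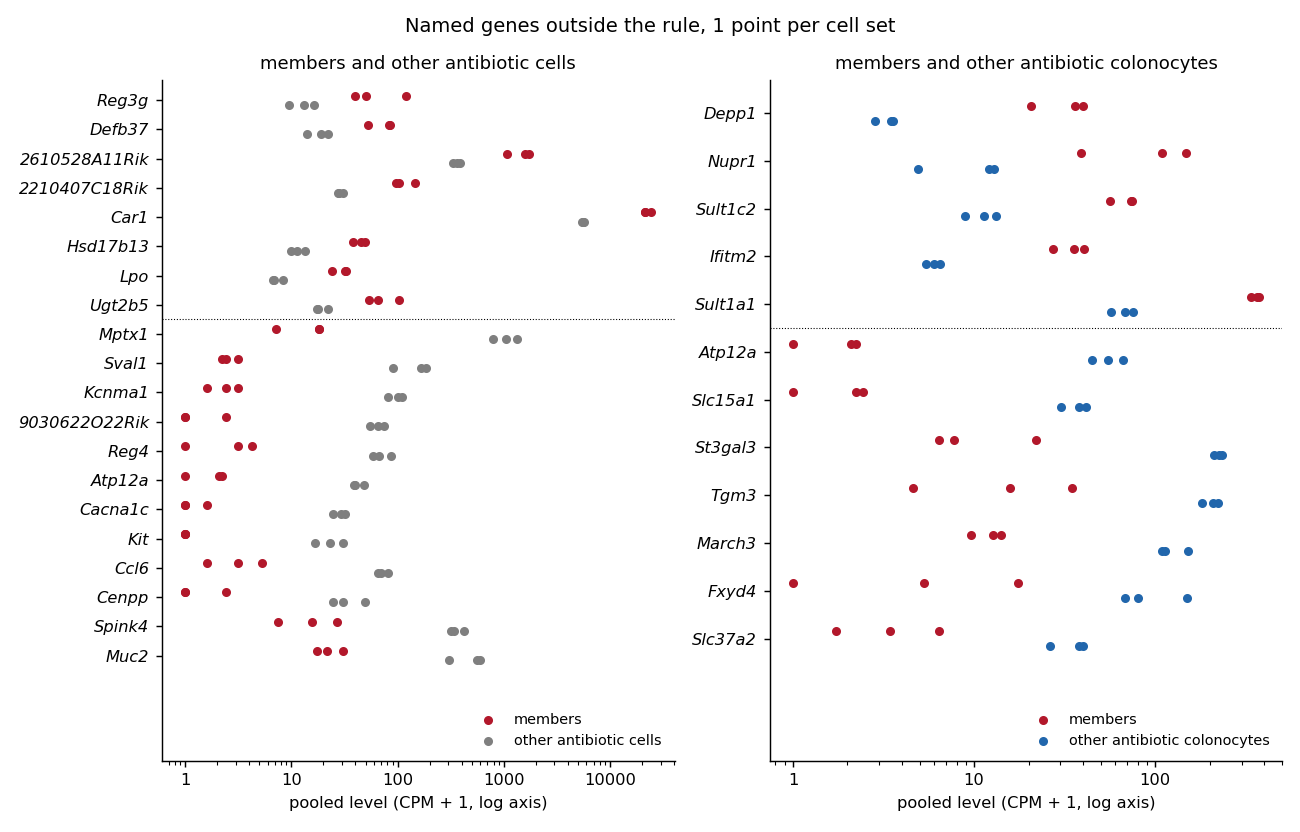
Levels as CPM + 1 on a log axis, 1 point per cell set, of the leading genes outside the rule in the chosen cells (members) and in all other antibiotic cells (left) or the other antibiotic colonocytes (right), with genes higher in the chosen cells above the dotted line. The 3 points of the 2 groups do not overlap for any gene shown, since genes were named only where they did not.

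The counts above depend on scaling and on set 2. Without set 2, 521 genes were called higher in place of 346. Called higher against lower stood at 346 and 1015 with pooled totals. They stood at 180 and 1486 when mitochondrial and ribosomal RNA genes were left out of the totals, at 950 and 601 with median-of-ratios factors, and at 966 and 1338 with the mean of per-cell levels. The median log2 ratio of all 10896 measured genes was -0.25, and it was -0.39 without mitochondrial and ribosomal RNA genes and -0.01 with median-of-ratios factors. Called genes also differed in length: the median gene span was 6.35 kb for genes called higher and 114 kb for genes called lower, against 31.1 kb for all ranked genes. The part of gene length, and of RNA still holding introns, in these calls was not tested.

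Nuclear genes of mitochondrial respiration were higher in the chosen cells. Of 87 measured nuclear genes of oxidative phosphorylation, 56 were called higher (58 with 1 cell per barcode) and 0 lower, against 5.35% and 15.7% of all ranked genes, with a median log2 ratio of 1.07 beside -0.25 for all genes. The list was picked by symbol, so beside subunits it can hold assembly factors, whose symbols begin with Ndufaf. Cox4i1, a subunit of cytochrome c oxidase, had 2740, 3190 and 3582 CPM in the chosen cells, against 1019, 1480 and 1366 CPM in the other antibiotic cells. Cox8a had 2551 CPM against 1205 CPM, a call that was lost when mitochondrial and ribosomal RNA genes were left out of the totals. The 13 genes encoded in the mitochondrion did not follow, with 0 called higher, 1 lower and a median of -0.52. Of 93 genes of the ribosomal protein list, 6 were called higher (9 with 1 cell per barcode) and 1 lower, a share near the 5.35% of all ranked genes, with a median of 0.84. That list too was picked by symbol, so it can also hold kinases of a ribosomal protein, whose symbols begin with Rps6k. Most lay under 2-fold: 82 had all cell sets above those of the other cells, as did 2014 of the 6465 ranked genes. All genes of the ribosomal protein list together took 9.42% of the UMI of the chosen cells and 5.20% of those of the others. Those of the oxidative phosphorylation list took 6.27% and 2.96%. The medians of the 3 families kept their signs under the 3 other scalings. That of the oxidative phosphorylation list was 0.92, under 2-fold, when mitochondrial and ribosomal RNA genes were left out of the totals, so its count of 56 does not hold there.

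Detoxifying enzymes were the other family with several calls, to be read beside the 5.35% of all ranked genes called higher and the 15.7% called lower. Of 22 measured glutathione transferase genes, 7 were called higher and 0 lower, with a median log2 ratio of 0.38, and 1 of the 7 is Gsta1 itself. Gstp1, a pi class transferase, had 133, 285 and 359 CPM in the chosen cells of sets 1, 2 and 3. It had 43.3, 86.3 and 89.2 CPM in the other antibiotic cells, so each set stood above its own counterpart and the groups did not overlap. Its near-identical copy Gstp2 had 63.0 CPM against 23.5 CPM, and the counts of the pair may be split between them. Gsta4, which acts on lipid peroxidation products, had 76.2 CPM against 22.7 CPM. Mgst1 and Mgst3, membrane-bound transferases, had 142 CPM against 49.2 CPM and 1879 CPM against 779 CPM. Gstk1, a mitochondrial and peroxisomal transferase, had 108 CPM against 39.5 CPM. Of 24 xenobiotic enzyme genes outside that family, 5 were called higher and 0 lower, among them the sulfotransferase Sult1d1 at 853 CPM against 323 CPM. The others were the epoxygenase Cyp2c65, the carboxylesterase Ces1f, the carbonyl reductase Cbr1 and Sult1a1. The calls of Cbr1 and Sult1a1 were lost without mitochondrial and ribosomal RNA genes in the totals.

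Of 20 redox genes controlled by NRF2, 3 were called higher and 0 lower, with a median of 0.54. Of all ranked genes, 5.35% were called higher and 15.7% lower, here and for the next lists. Nqo1, a quinone reductase, had 59.7 CPM in the chosen cells against 23.7 CPM, Cbr3 had 76.2 CPM against 32.3 CPM, and the peroxiredoxin Prdx1 had 757 CPM against 343 CPM. The Prdx1 call was lost without mitochondrial and ribosomal RNA genes in the totals. Of 17 metallothionein and zinc transport genes, Mt1 and Mt2 were the 2 called higher, and Slc30a7, a zinc transporter of the secretory pathway, was called lower, at 16.5 CPM against 43.9 CPM. The median of that list was -0.07 and its sign turned with scaling. Of 19 hypoxia genes, 1 was called higher, Fam162a itself, and 2 lower. Hif1a, the oxygen-regulated transcription factor, had 21.7, 45.4 and 46.2 CPM in the chosen cells and 172, 179 and 180 CPM in the other antibiotic cells. Of 17 glycolysis genes, 1 was called higher and 0 lower: Aldoa had 951 CPM against 457 CPM, a call that also rested on the totals.

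Fat oxidation, interferon response and regional genes had a few calls each, beside 5.35% of all ranked genes called higher and 15.7% called lower. Of 21 fat oxidation genes, 2 were called higher and 0 lower, with a median of 0.64. The thiolase Acaa2 had 255, 259 and 258 CPM in the chosen cells and 101, 100.5 and 97.5 CPM in the others, and the groups did not overlap. Of 17 interferon genes, 3 were called higher (Isg15, Ifit3 and Bst2) and 0 lower. Isg15 had 104 CPM against 38.8 CPM, and within the chosen cells it was highest in the Reg3b-led cells described above. Of 8 proximal colon genes, 3 were called higher and 1 lower: Mettl7b had 660.0 CPM against 216 CPM, Fabp2 (whose call rested on the totals) and Defb37 were higher, and Adh1 had 94.0 CPM against 265 CPM. Of 8 distal colon genes, 0 were called higher and 4 lower: Slc37a2, Atp12a, Hoxb13 and Sycn. Sycn had 183 CPM against 996 CPM, or 88.0 CPM against 924 CPM without set 2. Hoxb13, the most posterior Hox gene of the gut, had 23.1 CPM against 87.4 CPM. Within the chosen cells, Sycn and Hoxb13 were higher in the metallothionein-led cells described above.

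The antimicrobial and interleukin-22 lists did not move as wholes. For comparison, 5.35% of all ranked genes were called higher and 15.7% lower. Of 15 antimicrobial genes, Reg3b and Reg3g were the 2 called higher and 0 were called lower, and the list's median of -0.02 changed sign with scaling. Saa1, an acute-phase serum amyloid, had 133, 488 and 412 CPM in the chosen cells and 538, 456 and 503 CPM in the other antibiotic cells, so the groups overlapped. Of 7 interleukin-22 and STAT3 pathway genes, 0 were called higher and 1 lower. Stat3 itself had 77.2, 50.9 and 67.1 CPM in the chosen cells, below the 140, 122 and 129 CPM of the others, a call that was lost with median-of-ratios factors and with per-cell levels.

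**Figure D4:**
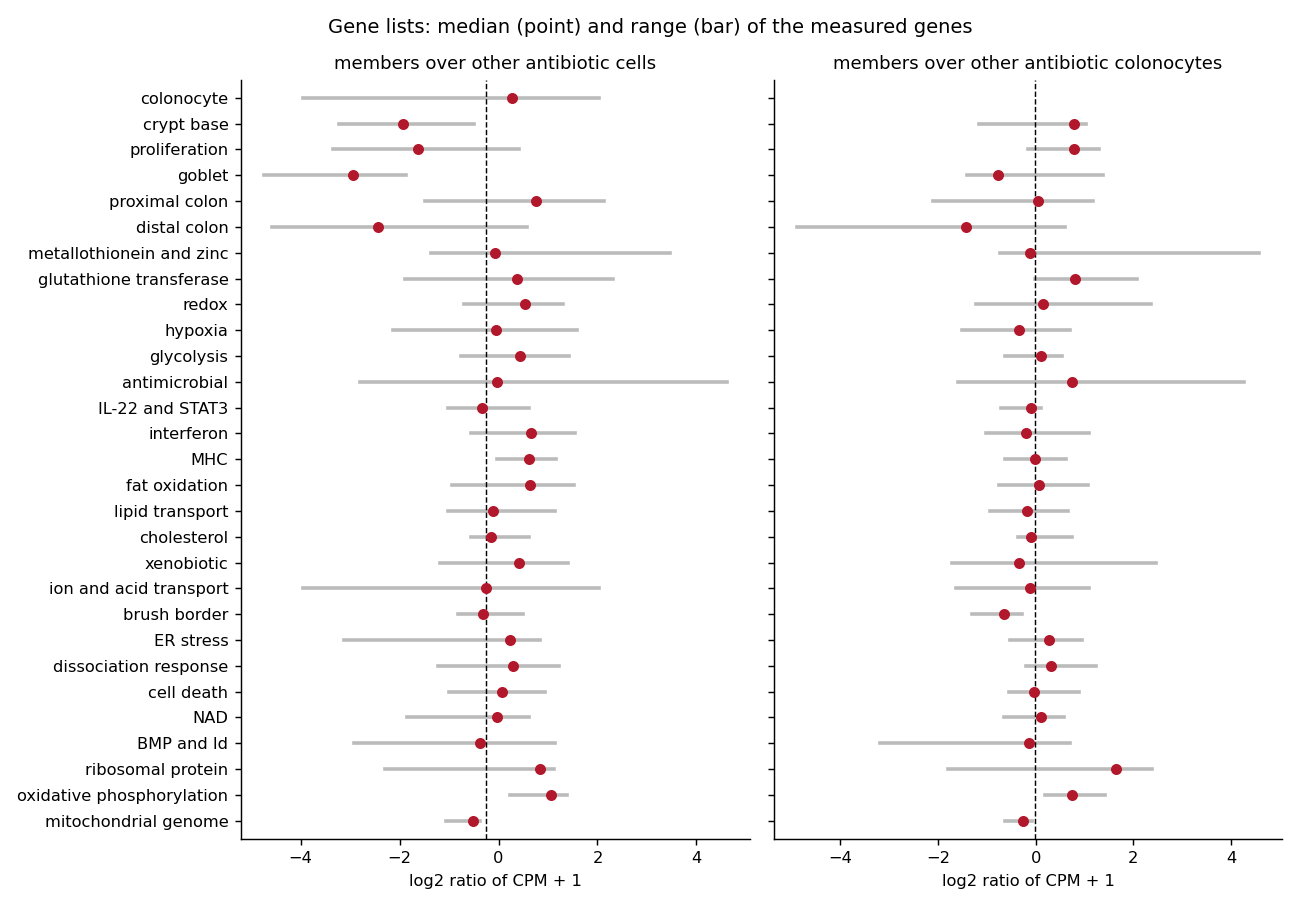
Median (point) and range (bar) of the log2 ratio of CPM + 1 over the measured genes of each list, for the chosen cells (members) over all other antibiotic cells (left) and over the other antibiotic colonocytes (right), with a dashed line at the median of all measured genes. On the left, oxidative phosphorylation (1.07) and ribosomal protein genes (0.84) have the highest medians, and the colonocyte list is blank on the right because it chose those cells.

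All other antibiotic cells include crypt and goblet cells, so the chosen cells were also set against 926 other antibiotic colonocytes. These passed the same filters and had a mean over the colonocyte markers at or above the 25th percentile of the chosen cells, so the 12 colonocyte markers are not read here. The cut was not applied to the chosen cells, so those below that percentile had a lower colonocyte mean than all 926. The median of that mean was 2.05 in the chosen cells and 2.14 in the other colonocytes. The part of this one-sided cut in the differences below was not tested. Of 5982 ranked genes, 408 were called higher in the chosen cells (6.82%) and 277 lower (4.63%). They were 288 and 462 when mitochondrial and ribosomal RNA genes were left out of the totals. With 1 cell per barcode the counts were 412 and 274, of which 396 and 268 were called in both. The genes of the rule kept large ratios: Mt2 was 25.7-fold higher (21.96 to 30.2), Reg3b 19.5-fold (18.1 to 21.0), Mt1 6.81-fold and Gsta1 3.48-fold. Fam162a, at 955 CPM against 582 CPM in the other colonocytes, was 1.64-fold higher and was not called.

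Of the 8 leading genes against colonocytes, Nupr1 and Ifitm2 were not called higher against all other antibiotic cells. Nupr1 had 38.0, 109 and 146 CPM in the chosen cells of sets 1, 2 and 3, and 3.91, 11.9 and 11.1 CPM in the other colonocytes. It was 10.7-fold higher (8.77 to 13.1), while all other antibiotic cells together had 154 CPM, above the 105 CPM of the chosen cells. Gpx2, an epithelial glutathione peroxidase and not one of the 8, had 73.9, 67.5 and 118 CPM in the chosen cells and 9.24, 19.0 and 17.1 CPM in the other colonocytes, again with 104 CPM in all other antibiotic cells. Sult1a1 had 374, 362 and 338 CPM in the chosen cells, against 66.8, 74.5 and 55.7 CPM in the other colonocytes, a ratio of 5.58 (5.12 to 6.08). The groups did not overlap for any of these genes. Depp1, a target of FOXO transcription factors, had 32.8 CPM against 2.19 CPM, and the sulfotransferase Sult1c2 had 67.1 CPM against 9.73 CPM. Ifitm2, an interferon-induced membrane protein, had 33.0 CPM against 5.05 CPM. Depp1 overlaps Rassf4 and Sult1a1 overlaps Sgf29, so some of their counts could belong to those neighbours.

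The genes lowest against colonocytes included several transporters. St3gal3, a sialyltransferase, had 5.43, 6.75 and 20.9 CPM in the chosen cells of sets 1, 2 and 3, and 224, 211 and 233 CPM in the other colonocytes, 19.6-fold lower (14.6 to 26.9). Without set 3 its levels were 6.27 CPM against 216 CPM. Tgm3, a transglutaminase, had 33.7, 14.7 and 3.61 CPM against 221, 206.5 and 181 CPM, 12.9-fold lower. Slc15a1, the peptide transporter PepT1, had 1.02 CPM against 36.1 CPM, 35.6-fold lower (13.8 to 131). Atp12a was 67.2-fold lower from its 3 UMI (22.9 to 327). Slc37a2, an endoplasmic reticulum sugar-phosphate exchanger, had 2.54 CPM against 32.0 CPM. March3, a ubiquitin ligase, had 10.9 CPM against 130 CPM, and Fxyd4, which modulates the sodium pump, had 7.62 CPM against 89.8 CPM. Fxyd4 had 2.74 CPM against 99.2 CPM without set 3 and 9.94 CPM against 74.7 CPM without set 1.

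By lists, the chosen cells had more translation and glutathione transferase transcripts and fewer brush border transcripts than other colonocytes. Of 92 genes of the ribosomal protein list, 79 were called higher and 1 lower, with a median of 1.64 beside -0.01 for all genes, against 6.82% and 4.63% of all ranked genes. Rpl41 had 2449, 2857 and 2875 CPM in the chosen cells and 1014, 1280 and 1123 CPM in the other colonocytes. The oxidative phosphorylation genes differed less than against all cells, with 14 of 87 called higher, 0 lower and a median of 0.75. Of 17 glutathione transferase genes, 7 were called higher and 0 lower, with a median of 0.80: Gsta1, Gsta4, Gstm1, Gstm2, Gstm3, Gstp1 and Mgst1, of which Gstp1 was not called without mitochondrial and ribosomal RNA genes in the totals. Gstm1, a mu class transferase, had 58.4 CPM against 18.4 CPM. Of 12 brush border genes, 3 were called lower (Eps8, Myo7b and Pls1), 0 higher, with a median of -0.65. All 12 had their cell sets below those of the other colonocytes, as did 1924 of the 5982 ranked genes. Eps8, an actin regulator of microvilli, had 516, 364 and 335 CPM in the chosen cells and 937, 853 and 1039 CPM in the other colonocytes. These medians kept their signs under the 3 other scalings. The xenobiotic list did not stand higher here, with 1 of 23 genes called higher, 1 lower and a median of -0.34. Of 17 interferon genes, 1 was called higher and 1 lower, with a median of -0.19 whose sign turned with scaling.

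Ion transport genes were mixed. Of 13 measured, 2 were called higher and 3 lower, and the sign of the median of -0.12 turned with scaling. Among all ranked genes, 6.82% were called higher and 4.63% lower. Car2, a cytosolic carbonic anhydrase, had 950, 957 and 781 CPM in the chosen cells and 437, 434 and 403 CPM in the other colonocytes. Slc12a2, the basolateral sodium, potassium and chloride cotransporter of secreting cells, had 37.8 CPM against 18.1 CPM, a call lost without mitochondrial and ribosomal RNA genes in the totals. The sodium and proton exchanger Slc9a3 had 77.2, 93.8 and 92.3 CPM in the chosen cells and 251, 273 and 279 CPM in the other colonocytes. Slc9a2 and Scnn1a, a subunit of the epithelial sodium channel, were also called lower. Prdx6, a peroxiredoxin, was lower, at 461 CPM against 1078 CPM. Saa1 was lower too, with 133, 488 and 412 CPM in the chosen cells and 1289, 1089 and 1114 CPM in the other colonocytes. Reg3g was higher, with 39.1, 49.1 and 119 CPM against 13.5, 7.73 and 19.0 CPM, so genes of the antimicrobial list differed in both directions, with 2 of 9 called higher and 2 lower.

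Of the 3 other colonocyte groups compared, the one marked by S100g and Defb37 had the fewest genes called. It was built as the 200 cells highest in those genes, of which 51 were also among the chosen cells, and the other 149 were compared. Of 5923 ranked genes, 1.23% were called higher in the chosen cells and 1.11% lower. Car1 stood at 22670 CPM against 22389 CPM and Gstp1 at 275 CPM against 268 CPM. Sult1a1 had 356 CPM against 203 CPM and Reg3g had 71.4 CPM against 37.1 CPM, and neither was called here. The chosen cells kept more Mt2 (338 CPM against 24.3 CPM) and Reg3b (1210 CPM against 121 CPM), as chosen. They also had more Hsd11b2, the enzyme that inactivates glucocorticoids (125 CPM against 28.3 CPM). Of the distal colon list, they had more Hoxb13 (23.1 CPM against 4.42 CPM) and more Sycn (183 CPM against 23.4 CPM). For Sycn these were 88.0 CPM against 29.9 CPM without set 2. They had less Ces2a, a carboxylesterase, at 44.2 CPM against 235 CPM, less of the membrane glutamyltransferase Ggt1, at 5.59 CPM against 39.8 CPM, and less of the deiodinase Dio1, at 29.2 CPM against 110.0 CPM.

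The surface group marked by Saa1, Aqp8 and Car4 and the proximal group marked by Clca4a, Slc13a1 and Grin3a had more genes called. Each shared 11 cells with the chosen cells, and 189 were compared. Against the surface group, 11.9% of 5956 ranked genes were called higher and 6.78% lower. Sult1a1 had 356 CPM in the chosen cells against 13.3 CPM, Gsta4 had 76.2 CPM against 3.90 CPM and Gpx2 had 86.6 CPM against 5.52 CPM. Tgm3 had 15.2 CPM against 464 CPM, and Nt5e, an ectonucleotidase of mature surface cells, had 1.78 CPM against 66.9 CPM. Against the Clca4a group, 16.3% of 6030 ranked genes were called higher and 10.2% lower. There Sult1a1 had 356 CPM against 10.2 CPM, Mgst1 had 142 CPM against 10.99 CPM, and Nme1, a nucleoside diphosphate kinase, had 58.2 CPM against 2.65 CPM. Without set 3, Mgst1 had 144 CPM against 3.82 CPM and Nme1 had 57.2 CPM against 0.763 CPM. Lama3, a laminin chain, had 26.4 CPM against 293 CPM.

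Across the 2780 antibiotic cells that passed the filters, the gene whose deposited values went most closely with the mean of the 5 genes was 2610528A11Rik, with a Pearson r of 0.59. Fth1 and Ftl1, the ferritin chains that store iron, followed with r of 0.59 and 0.55. Fth1 had 7203 CPM in the chosen cells and 2847 CPM in the other antibiotic cells. Cox4i1 (0.58), Tmsb4x (0.56), Higd1a (0.56), Phgr1 (0.55), Cox8a (0.54), Chchd10 (0.54) and Cox7a2 (0.54) completed the first 10, and Cox4i1, Cox8a and Cox7a2 are cytochrome c oxidase subunits. At the other end, Cmss1 had r = -0.44, at 4944 CPM in the chosen cells against 14208 CPM, followed by Foxp1 (-0.37) and Gphn (-0.36). The points share 1 pool and differ in depth, and the chosen cells are among them.

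The germ-free cells took no part in the choice. The lowest mean of a chosen cell, 1.32, was reached by 82 of 589 germ-free cells that passed the filters, 13.9% (exact 95% interval 11.2 to 17.0), against 200 of 2780 antibiotic cells, 7.19% (6.26 to 8.22). It was reached by 25 of 181 cells (13.8%) in germ-free set 3 and by 57 of 408 (14.0%) in set 4. With every cell thinned to 1000 UMI, the shares were 44 of 552 germ-free cells (7.97%) and 113 of 2695 antibiotic cells (4.19%). With 1 cell per barcode, the antibiotic share was 142 of 2278 (6.23%), or 72 of 2275 (3.16%) when thinned. The intervals cover counting error only, each condition is 1 pool and 1 batch, and no test was made.

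**Figure D5:**
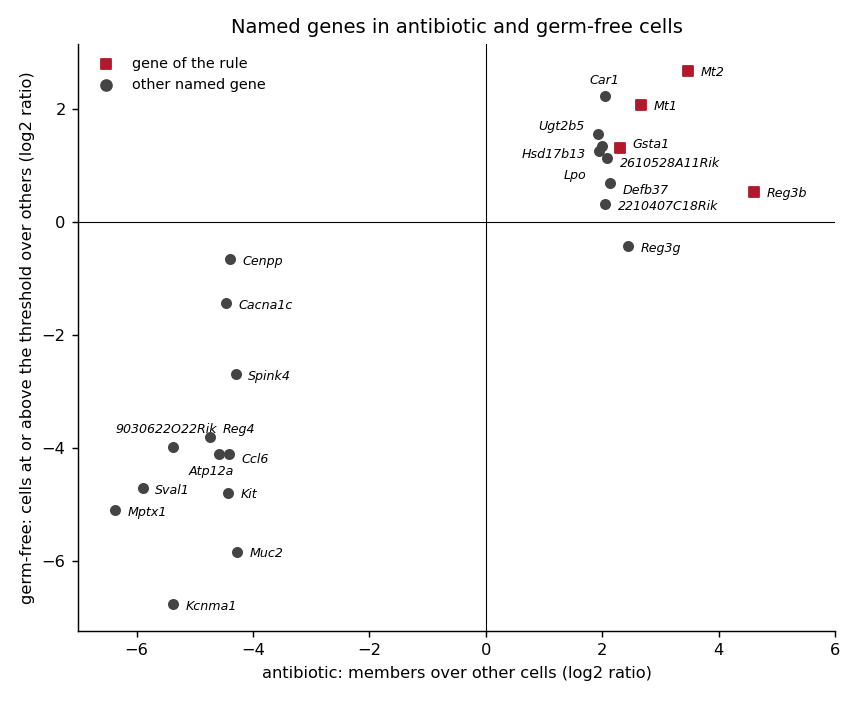
Log2 ratio of germ-free cells at or above the threshold over other germ-free cells (vertical axis) against the log2 ratio of the chosen antibiotic cells (members) over other antibiotic cells (horizontal axis), for the 12 leading genes in each direction, some of which had few UMI in germ-free cells. Mt2 lies high on both axes, Reg3b lies farthest right with a germ-free log2 ratio of 0.53, and Reg3g lies below the line at -0.43.

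The threshold itself sets a high combined level of the 5 genes in the germ-free cells that reach it, so these levels are given as a description. Mt2 had 687 CPM in them against 107 CPM in the other germ-free cells, Mt1 had 2722 CPM against 649 CPM, and Fam162a had 647 CPM against 185 CPM. Gsta1 had 90.1 CPM against 35.8 CPM. Reg3b had 268 CPM against 186 CPM, a log2 ratio of 0.53 that was not called, whereas in the antibiotic pool it was the gene with the largest ratio. Reg3g, which the rule did not use, had 120.1 and 65.5 CPM in the germ-free cells at or above the threshold of sets 3 and 4, and 77.5 and 97.8 CPM in the other germ-free cells, so the groups overlapped. Over all cells of a pool, Mt2 stood at 200.3 CPM in germ-free and 62.9 CPM in antibiotic cells, Mt1 at 983 and 637 CPM, Reg3b at 199 and 174 CPM, and Gsta1 at 44.5 and 76.9 CPM.

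Genes outside the rule mostly had the same direction in germ-free cells, at smaller sizes. The germ-free cells at or above the threshold were picked by the same score and filters. The other germ-free cells include those that failed the filters. Median depth was 4566 UMI in the former and 2754 UMI in the latter. Agreement in direction is thus partly fixed by the choice of cells, and that part was not tested. The genes were picked by the size of their antibiotic ratio and not of their germ-free ratio, so the smaller sizes do not compare the conditions. Of 4686 ranked germ-free genes, 1.2% were called higher in the cells at or above the threshold and 3.33% lower. Of 341 genes called higher in the antibiotic pool beyond the rule, 260 were ranked in germ-free cells. Of these 260, 256 (98.5%) were also higher there and 26 (10%) were called, with a median log2 ratio of 0.65, while 52.5% of all ranked germ-free genes were higher. Car1 had 11770 and 10085 CPM in the germ-free cells at or above the threshold of sets 3 and 4, and 3177 and 2043 CPM in the other germ-free cells. 2610528A11Rik had 979 CPM against 446 CPM, and Sult1a1 had 518 CPM against 212 CPM. Of 1015 genes called lower in the antibiotic pool, 771 were ranked, 702 (91.1%) were also lower and 109 (14.1%) were called. Mptx1 had 62.1 CPM against 2159 CPM. Kcnma1 had 0 UMI in the 82 cells, against 107 CPM in the other germ-free cells. Nupr1 and Gpx2, which stood high against antibiotic colonocytes, had 96.1 CPM against 166 CPM and 86.1 CPM against 135 CPM in germ-free cells.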

How the data were processed

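Single-cell RNA-seq of mouse colon epithelium was deposited as 1 gene-by-cell matrix. Per the submitters' processing notes, Cell Ranger 7.0.0, kallisto and bustools were used with mm10; the notes do not give the role of each. The authors deposited natural log values, ln(CP10K + 1), per cell. Dividing each cell's values by that of 1 molecule gave UMI counts that were whole within 0.01 for 100% of 9481333 nonzero values. UMI were summed over cells and cell sets and written as CPM. Log2 ratios used CPM + 1. Genes were ranked with at least 100 UMI in both groups together and 20 CPM in the higher one. Ratio intervals are exact conditional binomial and share intervals Clopper-Pearson, at 95%. Library-labelled samples could not be tied to cell sets, so none is used as a replicate, and no p-value is given.

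The cells, the gene lists and the comparisons were chosen with earlier results of these data known. Named genes were the 5 of the rule, the 12 ranked genes in each direction with the largest ratio against all other antibiotic cells and separate cell sets, the 8 against other antibiotic colonocytes, and the most abundant list members. Where 2 parts of this rule named a gene it counted under both, and genes named beyond it were chosen after their values were seen. Gene positions are GENCODE vM21 (GRCm38), matched for 31372 of 32285 symbols, and promoter sequences are RefSeq GRCm38.p6. Doublets were called with Scrublet in Scanpy 1.11.5 and none of the chosen cells was removed. The libraries labelled MULTI were not analysed here. Alternatives tried were other scalings, pseudocounts, filters, thresholds, rule genes left out, 1 cell set left out, averaging within sets and 1 cell per barcode. The calling step was tested on simulated counts that had the same gene means in every cell set. These held no variation between cells, no choice of cells by their values and no shared barcodes, so the simulation covers counting error only. Tables were made in Python 3.11.15 with pandas 2.3.3 and NumPy 2.4.6, intervals with SciPy 1.17.1 and figures with matplotlib 3.10.9.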

Additional observations from a re-analysis of the deposited data

Results flagged for a closer look

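For 8 genes, every cell set of 1 condition had the chosen cells on one side of the comparison cells and every cell set of the other condition had them on the opposite side. The difference between the conditions was not tested, and the cell sets are few and, in the antibiotic pool, share barcodes. How many genes would meet this rule without a difference was not estimated. Several of the ratios are very small, so a side can rest on a slight gap. Slc37a2 had a log2 ratio of 0.74 in germ-free cells at or above the threshold and -3.07 in the chosen antibiotic cells, which was the widest of these gaps. Gsdmc2 and Gsdmc4, gasdermin C genes, had germ-free log2 ratios of 1.04 and 0.61, against antibiotic log2 ratios of -0.59 and -0.46. Bmpr1a, a receptor for bone morphogenetic proteins, had 0.38 in germ-free and -0.38 in antibiotic cells. Klf4, a transcription factor of differentiating epithelium, had -0.19 in germ-free and 0.58 in antibiotic cells. Srebf2, the regulator of cholesterol synthesis, had 0.29 in germ-free and -0.53 in antibiotic cells, and its target Hmgcs1 had 0.12 and -0.07. Jund had 0 in germ-free cells, that is no difference at the digits given, and 0.41 in antibiotic cells.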

How the results depend on the processing

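Of 6968 log2 ratios of named genes under the alternatives, 5862 moved by less than the spread of the cell sets and 1105 moved more. A change of sign was counted only for genes called with the reported settings, and 1 was found. Sycn against other colonocytes was 0.47 with 400 chosen cells in place of -1.42, and the cause was not tested. Of 1583 list medians, 102 changed sign. Genes called higher against all other antibiotic cells numbered 346; they were 966 with the mean of per-cell levels, 180 without mitochondrial and ribosomal RNA genes in the totals, 950 with median-of-ratios factors, 215 with a pseudocount of 10 CPM, 170 with Gsta1 left out of the mean and 199 with Fam162a left out. Leaving out 1 cell set gave 262 to 521. Genes called lower numbered 1015; they were 601 with median-of-ratios factors, 629 with a pseudocount of 10 CPM and 615 with Fam162a left out, and 1022 to 1089 without 1 set. Against other colonocytes, 408 genes were called higher; they were 234 with a pseudocount of 10 CPM and 226 with Mt1 left out, and 339 to 476 without 1 set. The 277 called lower were 433 with the mean of per-cell levels, 462 without mitochondrial and ribosomal RNA genes, 154 with a pseudocount of 10 CPM and 173 with colonocytes taken at or above the chosen cells' median, an alternative added after seeing the data, and 269 to 327 without 1 set. With the cell set as a replicate block, by averaging within-set ratios, the 4 counts were 348, 1081, 402 and 289, so the block changed none by over 1.5 times. The sets share a number and not a sample, and the pairing rests on that number alone. The germ-free share of 13.9% was 7.97% after thinning and 13.8% to 14.0% in the single sets. Of the 200 chosen cells, 126 were chosen again after thinning to 3000 UMI, 173 with at least 1000 genes per cell, 150 to 165 with 1 rule gene left out and 142 on distinct barcodes. What sets these differences was not tested.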

Other observations

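Other gene lists had few calls. Against the other antibiotic colonocytes, 4 of 17 genes that respond to tissue dissociation were called higher in the chosen cells (3 with 1 cell per barcode) and 0 lower, beside 6.82% and 4.63% of all ranked genes. Hspa1a and Hspa1b, heat shock chaperones that are near-identical copies, had 70.1 and 72.9 CPM in the chosen cells and 34.4 and 30.6 CPM in the other colonocytes. Ier3, an immediate early gene, had 27.7 CPM in the chosen cells against 11.3 CPM, and Nr4a1, an immediate early nuclear receptor, had 38.6 CPM against 16.8 CPM. Nr4a1 was lower than in all other antibiotic cells, which had 91.8 CPM. Their part in the other results was not tested. Stmn1 and Hmgb2, genes of the proliferation list, were called higher than in other colonocytes: Hmgb2 had 146 CPM against 67.8 CPM and Stmn1 had 22.4 CPM against 8.56 CPM, though both calls were lost without mitochondrial and ribosomal RNA genes in the totals. Without set 3, Stmn1 had 12.9 CPM against 8.19 CPM and was not called. Mki67 had 5.59 CPM in the chosen cells against 6.36 CPM in the other colonocytes. Of 5 measured crypt and stem cell genes, 1 was called higher than in other colonocytes and 1 lower, with a median log2 ratio of 0.79.

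Of 9 BMP and Id genes, 1 was called higher against all other antibiotic cells and 1 lower: Id3, a target of bone morphogenetic proteins, had 190.2 CPM in the chosen cells against 85.7 CPM, and Smad6, an inhibitor of that pathway, had 11.9 CPM against 26.5 CPM. Of 18 genes of the unfolded protein response, 0 were called higher and 2 lower, among them Ern2, a sensor of secretory cells, at 3.05 CPM against 34.1 CPM. Il18, an epithelial cytokine, was the 1 gene called lower of 16 cell death genes, at 39.6 CPM against 80.7 CPM, a call lost with 1 cell per barcode, and Nmnat3 was the 1 called lower of 14 NAD genes, at 11.7 CPM against 44.5 CPM. Of 16 cholesterol genes, 0 were called in either direction. In the same comparison, 5.35% of all ranked genes were called higher and 15.7% lower.

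Xist UMI without any Y-linked UMI occurred in 39 of the chosen cells and Y-linked UMI without Xist in 92, against 515 and 1528 of the other antibiotic cells, so the pool held cells of both sexes.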
